A study of Homo sapiens with 24 samples.

Results

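The genes described here are 8 genes of sugar uptake and its control: the hexose transporter genes SLC2A1, SLC2A3, SLC2A5 and SLC2A6, the arrestin-family genes TXNIP and ARRDC4, and the first-step and regulatory enzyme genes HK2 and PFKFB3. They were taken by name from the gene list of the RNA-seq count table, after its Ensembl identifiers had been matched to symbols. That rule uses no measured value, but the 8 genes were chosen with earlier results of these data known. Counts of calls among them, set against all tested genes below, are therefore descriptions. The genes are 8 of 58676 gene IDs in the table. All 8 passed the filter on low counts that left 17327 genes for testing, ARRDC4 through its counts in U-2932.

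The series measured the RNA of 4 diffuse large B-cell lymphoma lines, all labelled wild type, that received TAK-981, a small-molecule inhibitor of the SUMO-activating enzyme. The groups are U-2932, OCI-LY19, OCI-LY3 and SU-DHL-10 cells, each after 8 h of TAK-981 and each at 0 h, with 2 libraries per group and 16 libraries in all. The dose is not given in the labels, and no vehicle-treated culture at 8 h was analysed here, so that 8 h of further culture is part of every value. Levels are given in CPM, a library's count for the gene relative to its total over the tested genes, scaled by the TMM method, and a log2 fold change is the fitted difference of 8 h minus 0 h with its standard error (SE). Adjusted p-values are from the quasi-likelihood test of edgeR, adjusted by Benjamini and Hochberg's method over the 17327 genes, and a gene is called where the adjusted p is under 0.05.

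SLC2A1, SLC2A3 and SLC2A5 encode the carriers GLUT1, GLUT3 and GLUT5, which let sugars cross the plasma membrane down their gradient: GLUT1 and GLUT3 carry glucose and GLUT5 carries fructose, while GLUT6, the product of SLC2A6, is found largely in lysosomes. TXNIP and ARRDC4 are alpha-arrestins that promote removal of glucose carriers from the cell surface, TXNIP also binds thioredoxin, and both genes are known targets of the glucose-sensing factor MondoA with its partner MLX. HK2 is a hexokinase that traps glucose as its phosphate, and PFKFB3 makes the bisphosphate of fructose that activates phosphofructokinase, so that both sit at the entry to glycolysis.

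Promoters are shown for 4 of the genes: TXNIP and SLC2A5 because both were called lower at 8 h in each of the 4 lines with TMM scaling (TXNIP in U-2932 being higher with spike-in scaling), ARRDC4 as the paralogue of TXNIP that was present in 1 line, and HK2 as an enzyme gene that moved in 2 lines. Each is a stretch of 300 bases from RefSeq on GRCh38.p14, with 250 bases before and 50 after an annotated start, written in the direction of the gene. For TXNIP it is the first listed start (chr1:145996530-145996829, minus strand), for SLC2A5 chr1:9069586-9069885 on the minus strand, for ARRDC4 chr15:97960453-97960752 on the plus strand, and for HK2 the second listed start (chr2:74834920-74835219, plus strand). Capitals mark matches, on either strand, to an E-box (CACGTG), a carbohydrate response element (CACGNG, then 5 bases of any kind, then CACGNG), or a FOXO site (GTAAACA).
TXNIP: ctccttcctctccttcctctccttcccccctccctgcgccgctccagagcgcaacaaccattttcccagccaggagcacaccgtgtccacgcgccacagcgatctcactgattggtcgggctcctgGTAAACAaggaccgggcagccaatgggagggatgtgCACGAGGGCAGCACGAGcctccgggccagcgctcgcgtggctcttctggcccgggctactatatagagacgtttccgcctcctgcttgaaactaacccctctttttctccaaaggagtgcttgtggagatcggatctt
SLC2A5: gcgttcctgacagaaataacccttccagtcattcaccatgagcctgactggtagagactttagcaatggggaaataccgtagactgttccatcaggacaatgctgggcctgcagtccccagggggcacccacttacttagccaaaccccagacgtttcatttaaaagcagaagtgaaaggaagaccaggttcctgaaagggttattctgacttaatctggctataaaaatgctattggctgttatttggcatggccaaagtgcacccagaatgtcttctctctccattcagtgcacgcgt
ARRDC4: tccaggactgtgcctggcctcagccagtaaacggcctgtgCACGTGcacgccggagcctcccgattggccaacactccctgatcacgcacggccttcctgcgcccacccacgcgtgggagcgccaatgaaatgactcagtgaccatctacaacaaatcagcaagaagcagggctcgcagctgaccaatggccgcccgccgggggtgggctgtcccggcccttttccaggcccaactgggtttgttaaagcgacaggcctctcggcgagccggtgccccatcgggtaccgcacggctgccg
HK2: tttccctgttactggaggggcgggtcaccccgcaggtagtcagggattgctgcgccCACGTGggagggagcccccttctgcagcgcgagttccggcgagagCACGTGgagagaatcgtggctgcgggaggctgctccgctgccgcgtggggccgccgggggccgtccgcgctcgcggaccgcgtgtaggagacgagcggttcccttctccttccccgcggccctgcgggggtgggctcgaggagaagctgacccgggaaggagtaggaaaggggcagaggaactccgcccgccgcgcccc

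In the TXNIP stretch the carbohydrate response element letters began at position -88 from the start and the FOXO letters at -124. The ARRDC4 stretch held an E-box at -210, and the HK2 stretch held E-boxes at -194 and -149. The second listed start of PFKFB3 had an E-box at -108, while the stretches of SLC2A1, SLC2A5 and SLC2A6 held none of these letters. Nor did the first listed starts of HK2 and PFKFB3 or the second of TXNIP, so that matches differed between starts of the same gene. Of 35116 promoters of the same length in the table, 7.26% held an E-box, 3.42% the FOXO letters and 0.057% (20 promoters) the carbohydrate response element. The shorter hypoxia response core ACGTG, which lies inside CACGTG, was in 21.4%, and apart from those inside E-boxes it matched the second start of TXNIP at -162 and the first start of HK2 at -229 and -48. Promoters of 7 of the 8 genes were in the table, and a match describes letters, not a bound site.

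A library held between 16770677 and 24694466 gene counts. Nothing in the labels says that the 2 libraries of a group stem from different cultures. P-values within a line and between lines then measure only the spread between these libraries, which may be technical. For the change across the 4 lines, fitted by line and time, the spread also holds differences in response between lines. Libraries, not the 4 lines, are the units of that fit. The sample labels name SU-DHL-10, which is followed here, but the design text lists SU-DHL4 in its place. OCI-LY3 and OCI-LY19 were close to each other at 0 h, with a Pearson r of 0.978 across genes on mean log2 CPM. The other pairs of lines had 0.817 to 0.878, and the 2 libraries of a group had 0.984 to 0.994 with each other. Whether OCI-LY3 and OCI-LY19 are separate lines was not tested, and results shared by the 2 carry that limit. The spike-in RNAs took 0.0435% to 0.0823% of counts in SU-DHL-10 and OCI-LY3 libraries and 0.382% to 0.620% in OCI-LY19 and U-2932 libraries. Scaling by spike-in totals in place of TMM moved the median log2 fold change of all tested genes to 0.70 in U-2932, 0.00 in OCI-LY19, 0.20 in OCI-LY3 and 0.11 in SU-DHL-10. In U-2932 the spike-in share was 0.382% to 0.427% at 8 h and 0.614% to 0.620% at 0 h. Fold changes are therefore relative to the bulk of genes. Differences in level between lines depend on the scaling still more, since spike-in scaling put the median gene of SU-DHL-10 or OCI-LY3 2.41 to 3.51 above that of OCI-LY19 or U-2932 on the log2 scale. Of 84 comparisons of level between lines in 7 of the 8 genes, 47 changed sign or call with spike-in scaling and 16 without TMM, so that levels set between lines below are TMM values only. In bulk RNA fewer cells expressing a gene and less RNA per cell cannot be told apart.

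The lines carried B-cell markers throughout, with MS4A1 at 491 to 1632 CPM, CD79A at 381 to 1082 CPM, CD79B at 31.0 to 243 CPM and PAX5 at 153 to 491 CPM over the 16 libraries, and CD22 at up to 1179 CPM. CD3D of T cells, C1QA and C1QB of macrophages, HBA2 and HBB of erythroid cells, and COL3A1 and CDH5 of stroma and endothelium had 0 counts in all libraries, while TRAC of the T-cell list reached 18.3 CPM and ITGAM of the monocyte list 11.9 CPM. In the 12 epithelial, stromal and endothelial markers the summed level was 122 to 127 CPM at 8 h and 79.4 to 99.4 CPM at 0 h in OCI-LY3, and 173 to 175 CPM at 8 h and 72.2 to 87.0 CPM at 0 h in OCI-LY19. COL1A1 alone averaged 123 CPM at 8 h and 88.2 CPM at 0 h in OCI-LY3, and 173 CPM at 8 h and 75.0 CPM at 0 h in OCI-LY19. That list moved in the 2 lines in which SLC2A1, SLC2A3 and HK2 rose, and its part in those results was not tested. The 12 T and NK cell markers summed to 7.75 to 8.02 CPM at 8 h and 18.5 to 22.3 CPM at 0 h in U-2932, and the 12 monocyte markers to 3.66 to 5.56 CPM at 8 h and 8.02 to 8.52 CPM at 0 h in OCI-LY3. The other sums of these 2 lists are given next, and those of monocytes in OCI-LY19 were above the OCI-LY3 sums. For T and NK cells they were 8.33 to 9.35 CPM at 8 h and 5.54 to 6.75 CPM at 0 h in SU-DHL-10, where TRAC was called higher, 2.14 to 2.72 CPM at 8 h and 4.29 to 4.54 CPM at 0 h in OCI-LY3, where TRAC was called lower, and 3.31 to 3.47 CPM at 8 h and 4.49 to 5.77 CPM at 0 h in OCI-LY19. For monocytes they were 0.958 to 1.35 CPM at 8 h and 2.12 to 3.65 CPM at 0 h in U-2932, 0.443 to 0.485 CPM at 8 h and 0.825 to 0.983 CPM at 0 h in SU-DHL-10, and 11.2 to 12.7 CPM at 8 h and 12.5 to 13.8 CPM at 0 h in OCI-LY19. Of the 5 named B-cell markers, 4 fell and 1 (PAX5) rose in U-2932 with TMM scaling. With that scaling 1 fell in OCI-LY19, 4 fell in OCI-LY3 and 2 fell in SU-DHL-10. With spike-in scaling 1 fell and 1 rose in U-2932, 2 fell in OCI-LY3 and 1 fell in each of the other 2 lines. Without TMM 4 of these markers fell and 1 rose in U-2932, 4 fell in OCI-LY19 and 5 fell in OCI-LY3. In SU-DHL-10 2 of these markers fell and 1 rose without TMM. Their summed level was 1524 to 1530 CPM at 8 h and 2227 to 2286 CPM at 0 h in U-2932, 1404 to 1413 CPM at 8 h and 1428 to 1479 CPM at 0 h in OCI-LY19, 2426 to 2461 CPM at 8 h and 3081 to 3158 CPM at 0 h in OCI-LY3, and 3485 to 3571 CPM at 8 h and 3406 to 3830 CPM at 0 h in SU-DHL-10. The part of these markers in the changes of those lines was not tested either.

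The fructose carrier gene SLC2A5 fell in all 4 lines after 8 h of TAK-981, the glucose carrier genes SLC2A1 and SLC2A3 rose in OCI-LY3 and OCI-LY19, and TXNIP fell in all 4 lines with TMM scaling, a direction that turned in U-2932 under spike-in scaling. Over the 4 lines together, in a model that fitted line and time, SLC2A3 and HK2 were called higher and SLC2A5 and TXNIP lower. That is 4 of 8 genes called, against 18.1% of all tested genes, of which 10% were higher and 8.03% lower. The other 4 genes had across-line log2 fold changes between -0.35 and 0.14, and none of them was called, but PFKFB3 was called lower without the OCI-LY19 line (-0.30), without TMM (-0.21) and in the mean of the 4 line contrasts (-0.18; with spike-in scaling it was 0.10), and SLC2A6 higher in that mean (0.14). Within the 2 lines of high spike-in share, OCI-LY19 and U-2932, the across-line values were -2.03 for SLC2A5, -0.86 for TXNIP, 0.79 for SLC2A3 and 0.43 for HK2 (adjusted p = 0.00183, 0.0348, 0.0171 and 0.157). Within SU-DHL-10 and OCI-LY3, the lines of low share, they were -1.70, -0.74, 1.01 and 0.33 in the same order of genes (adjusted p = 0.0468, 9.57e-04, 0.0227 and 0.0729), so that HK2 was called in neither. SLC2A6 was called higher within OCI-LY19 and U-2932 (0.45, adjusted p = 0.0210), but not within SU-DHL-10 and OCI-LY3 (-0.18, adjusted p = 0.265), and SLC2A1 and PFKFB3 were called in neither.

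**Figure D1:**
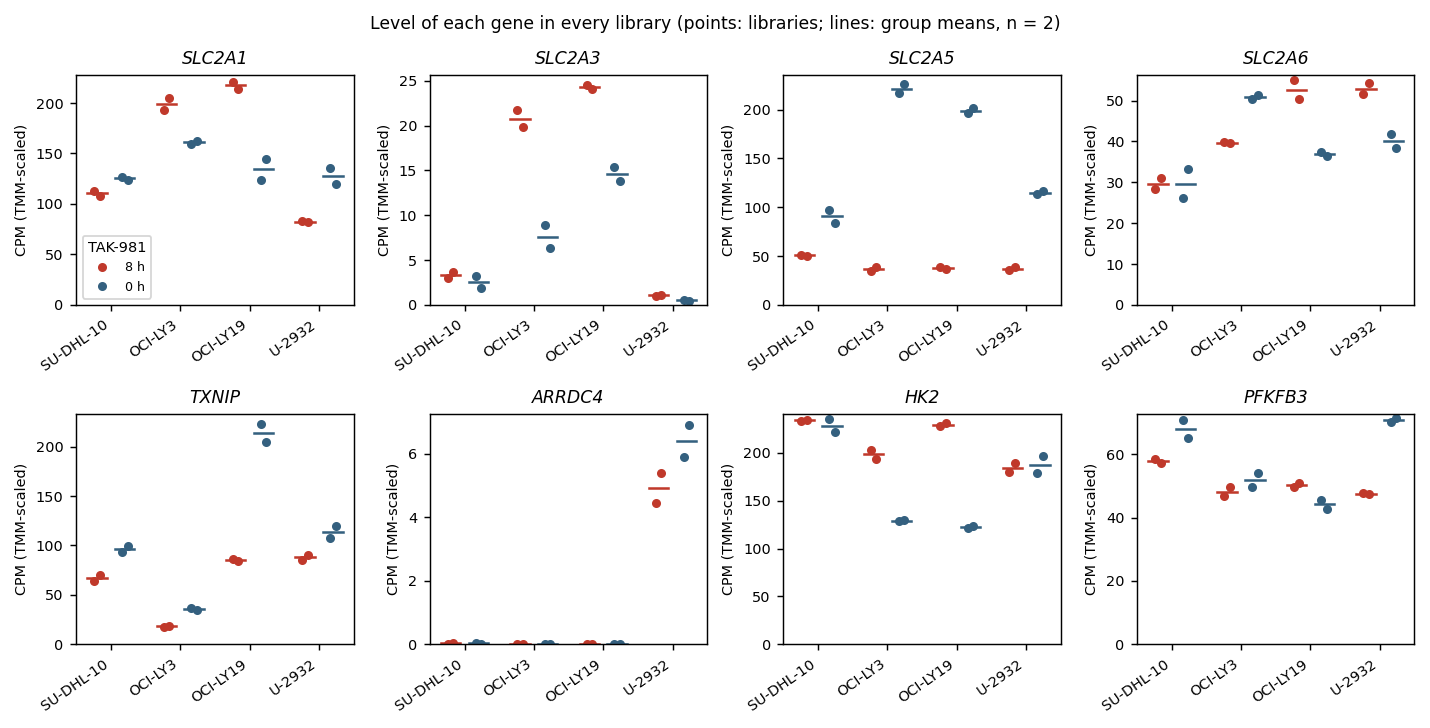
Level of each of the 8 genes in every library, in CPM scaled by TMM on a linear axis that starts at 0, with 8 h of TAK-981 (red) left of 0 h (blue) in each line; points are libraries and lines the means of 2. SLC2A5 lies between 34.7 and 51.4 CPM in all 8 h libraries and between 83.8 and 226 CPM in all 0 h libraries, and ARRDC4 is seen in U-2932.

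SLC2A5, the fructose carrier gene, had the steepest fall in each line among those of the 8 genes that had a value there. In OCI-LY3 its level was 34.7 and 38.9 CPM at 8 h, against 217 and 226 CPM at 0 h, a log2 fold change of -2.59 ± 0.08 (adjusted p = 7.28e-27). In OCI-LY19 it was 38.8 and 36.6 CPM at 8 h, against 196 and 202 CPM at 0 h (-2.40 ± 0.08, adjusted p = 1.12e-26). The 8 h libraries of both lines lay far below their 0 h libraries. In U-2932 SLC2A5 stood at 35.9 and 38.3 CPM at 8 h, against 113 and 117 CPM at 0 h (-1.63 ± 0.08, adjusted p = 1.22e-20). In SU-DHL-10 it stood at 51.4 and 50.3 CPM at 8 h, against 97.4 and 83.8 CPM at 0 h (-0.83 ± 0.08, adjusted p = 6.72e-11). The groups did not overlap in any line, and the direction held under every alternative tried, spike-in scaling included, where the U-2932 value was -0.91.

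With TMM scaling the SLC2A5 levels of the lines were farther apart at 0 h than at 8 h. At 0 h the order was OCI-LY3, OCI-LY19, U-2932 and SU-DHL-10 from high to low. OCI-LY3 minus OCI-LY19 was 0.15 ± 0.07 on the log2 scale and was not called (adjusted p = 0.0763), and the next steps down, OCI-LY19 minus U-2932 at 0.79 ± 0.07 and SU-DHL-10 minus U-2932 at -0.35 ± 0.07, were called (adjusted p = 5.36e-13 and 6.02e-05). At 8 h SU-DHL-10 was the highest line, 0.43 to 0.47 above each of the other 3 on the log2 scale. Among those 3 no pair was called, with OCI-LY3 minus OCI-LY19 at -0.04 (95% interval from -0.20 to 0.13, adjusted p = 0.795), OCI-LY3 minus U-2932 at -0.01 (adjusted p = 0.890) and OCI-LY19 minus U-2932 at 0.02 (adjusted p = 0.828). Other scalings changed this: without TMM OCI-LY3 and OCI-LY19 were both called below U-2932 at 8 h (-0.22 and -0.18), and with spike-in scaling all 3 pairs were called, OCI-LY3 minus OCI-LY19 at 2.93. The fall itself was not called different between OCI-LY3 and OCI-LY19 (-0.19 ± 0.11, adjusted p = 0.255), and it differed in the other 5 pairs of lines.

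SLC2A1, which encodes the widely expressed glucose carrier GLUT1, rose in OCI-LY19 and OCI-LY3, and fell in U-2932 with TMM scaling though not with spike-in scaling. In OCI-LY19 it had 221 and 214 CPM at 8 h, against 124 and 145 CPM at 0 h, a log2 fold change of 0.70 ± 0.07 (adjusted p = 3.98e-11). In OCI-LY3 it had 193 and 205 CPM at 8 h, against 160 and 162 CPM at 0 h (0.30 ± 0.07, adjusted p = 6.69e-04). Both 8 h libraries were above both 0 h libraries in these 2 lines. In U-2932 the order was the opposite, with 82.7 and 81.9 CPM at 8 h against 135 and 120 CPM at 0 h (-0.63 ± 0.07, adjusted p = 6.16e-10), but under spike-in scaling the value was 0.09 (adjusted p = 0.629). SU-DHL-10 had 113 and 108 CPM at 8 h and 127 and 123 CPM at 0 h, and this difference of -0.18 ± 0.07 was not called (adjusted p = 0.0853). Because the lines moved in both directions, the value across lines was 0.05 ± 0.14, and it turned to -0.16 without the OCI-LY19 line and to -0.04 without the OCI-LY3 line.

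At 0 h the SLC2A1 levels of OCI-LY19, U-2932 and SU-DHL-10 were not called different in any of their 3 pairs with TMM scaling (adjusted p from 0.216 to 0.766), and OCI-LY3 was above each of them. Without TMM OCI-LY19 was called above U-2932 (0.22) and SU-DHL-10 (-0.26 for SU-DHL-10 minus OCI-LY19), and it was not called different from OCI-LY3 (adjusted p = 0.517). At 8 h the lines stood in 3 steps with TMM scaling: OCI-LY19 and OCI-LY3, whose difference of -0.13 ± 0.07 for OCI-LY3 minus OCI-LY19 was not called (adjusted p = 0.143), then SU-DHL-10, then U-2932. The step from SU-DHL-10 to U-2932 was 0.42 ± 0.07 (adjusted p = 1.61e-06).

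SLC2A3, which encodes the high-affinity glucose carrier GLUT3, was higher at 8 h in OCI-LY3 and OCI-LY19. In OCI-LY3 it had 21.7 and 19.9 CPM at 8 h, against 8.92 and 6.31 CPM at 0 h, a log2 fold change of 1.44 ± 0.17 (adjusted p = 9.42e-09). In OCI-LY19 it had 24.5 and 24.0 CPM at 8 h, against 15.4 and 13.8 CPM at 0 h (0.74 ± 0.16, adjusted p = 1.64e-04). With TMM scaling the levels of these 2 lines at 8 h were not called different (-0.22 ± 0.15 for OCI-LY3 minus OCI-LY19, adjusted p = 0.275), while at 0 h OCI-LY3 had been the lower by 0.93 on the log2 scale (-0.93 ± 0.18, adjusted p = 3.58e-05), an order that turned with spike-in scaling (1.78). In U-2932 the gene was near the detection limit, with 0.992 and 1.13 CPM at 8 h and 0.589 and 0.482 CPM at 0 h (0.99 ± 0.43, adjusted p = 0.0522), and 8 of 25 alternatives called it. In SU-DHL-10 the libraries overlapped, with 2.97 and 3.70 CPM at 8 h and 3.22 and 1.83 CPM at 0 h (0.40 ± 0.24, adjusted p = 0.322). Without the first 0 h library of SU-DHL-10 this value was 0.86 and was called (adjusted p = 0.0480), and over all libraries left out in turn it ran from 0.055 to 0.86. Across lines the log2 fold change was 0.90 ± 0.16 (adjusted p = 0.00138), higher under all 31 alternatives.

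SLC2A3 shares long stretches with its near copy SLC2A14, which had 5 counts in total over the 16 libraries, and adding those counts changed no SLC2A3 call within a line or across lines except to bring U-2932 past the threshold. The SLC2A3 pseudogenes had at most 17 counts each over the 16 libraries, and the HK2 pseudogene HK2P1 had 9.

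SLC2A6, which encodes the lysosomal carrier GLUT6, moved in opposite directions in the 2 most similar lines. In OCI-LY19 it had 54.9 and 50.4 CPM at 8 h, against 37.3 and 36.4 CPM at 0 h (0.52 ± 0.09, adjusted p = 1.63e-05). In OCI-LY3 it had 39.9 and 39.6 CPM at 8 h, against 50.5 and 51.4 CPM at 0 h (-0.36 ± 0.09, adjusted p = 0.00344), and under spike-in scaling -0.11 (adjusted p = 0.718). The direct test of OCI-LY3 minus OCI-LY19 gave a difference in response of -0.87 ± 0.13 (adjusted p = 5.42e-06). U-2932 resembled OCI-LY19, with 51.7 and 54.2 CPM at 8 h against 41.8 and 38.4 CPM at 0 h (0.40 ± 0.09, adjusted p = 3.61e-04). In these 2 lines neither the level at 8 h nor the level at 0 h was called different with TMM scaling (adjusted p = 0.952 and 0.266), while at 8 h OCI-LY19 was called the lower without TMM (-0.21) and with spike-in scaling (-0.48). SU-DHL-10 libraries overlapped, with 28.4 and 31.0 CPM at 8 h and 26.1 and 33.2 CPM at 0 h, and gave no call (adjusted p = 1).

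TXNIP, which binds thioredoxin and drives removal of glucose carriers from the surface, fell most in OCI-LY19. There it had 86.3 and 84.1 CPM at 8 h, against 223 and 204 CPM at 0 h, a log2 fold change of -1.33 ± 0.07 (adjusted p = 6.25e-19). In OCI-LY3 it had 17.3 and 18.6 CPM at 8 h, against 36.9 and 34.8 CPM at 0 h (-0.999 ± 0.091, adjusted p = 8.31e-12). In both lines the 8 h libraries lay well below the 0 h libraries under each scaling tried. In SU-DHL-10 TXNIP had 64.1 and 70.0 CPM at 8 h, against 93.0 and 99.2 CPM at 0 h (-0.52 ± 0.07, adjusted p = 2.19e-06), and under spike-in scaling -0.38 (adjusted p = 0.173). In U-2932 it had 85.5 and 90.3 CPM at 8 h, against 107 and 120 CPM at 0 h (-0.37 ± 0.07, adjusted p = 4.50e-05), but under spike-in scaling it was higher at 8 h by 0.36 (adjusted p = 0.0404). Across lines TXNIP was lower by -0.80 ± 0.11 (adjusted p = 2.36e-04), and by -0.53 with spike-in scaling (adjusted p = 0.0393).

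With TMM scaling OCI-LY3 had the lowest TXNIP level. At 0 h OCI-LY3 minus OCI-LY19 was -2.57 ± 0.08 on the log2 scale (adjusted p = 5.50e-27), although these lines were the most alike across genes, but with spike-in scaling it was 0.13 and was not called (adjusted p = 0.460). From high to low the order at 0 h was OCI-LY19, U-2932, SU-DHL-10 and OCI-LY3, and each neighbouring pair differed by the test, the closest being SU-DHL-10 minus U-2932 at -0.24 ± 0.07 (adjusted p = 0.00394). At 8 h OCI-LY19 minus U-2932 was -0.05 ± 0.07 and was not called (adjusted p = 0.596; without TMM -0.24, adjusted p = 0.00496), and OCI-LY3 stayed lowest, with SU-DHL-10 minus OCI-LY3 at 1.90 ± 0.09 and OCI-LY3 minus U-2932 at -2.29 ± 0.09.

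ARRDC4, the alpha-arrestin most like TXNIP, was measurable at these depths in U-2932. It had 99 and 124 counts at 8 h and 100 and 129 counts at 0 h in U-2932, or 4.46 and 5.40 CPM at 8 h and 5.89 and 6.92 CPM at 0 h. The change of -0.38 ± 0.32 was not called (adjusted p = 0.343), and its sign turned to 0.35 under spike-in scaling. No ARRDC4 count was recorded in the 4 OCI-LY3 and the 4 OCI-LY19 libraries. Against a floor of 3 counts over a group, and with TMM scaling, the level in U-2932 was at least 66.4-fold higher than in OCI-LY3 and at least 74.3-fold higher than in OCI-LY19 at 8 h, and at least 71.9-fold and 86.6-fold higher than in those lines at 0 h. SU-DHL-10 had 1 count at each time, so the ratio of U-2932 to SU-DHL-10 was 224 at 8 h (Poisson interval 39.7 to 8867), covering counting error only. The across-line value of -0.35 ± 0.38 rests on U-2932.

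HK2, the inducible hexokinase gene, rose in OCI-LY3 and OCI-LY19. In OCI-LY19 it had 228 and 231 CPM at 8 h, against 121 and 124 CPM at 0 h, a log2 fold change of 0.90 ± 0.06 (adjusted p = 1.41e-15). In OCI-LY3 it had 203 and 194 CPM at 8 h, against 128 and 130 CPM at 0 h (0.62 ± 0.06, adjusted p = 1.78e-10). These 2 lines had the lowest HK2 levels at 0 h with TMM scaling and were not called different from each other then (0.07 ± 0.06 for OCI-LY3 minus OCI-LY19, adjusted p = 0.389). SU-DHL-10 had 234 and 234 CPM at 8 h and 235 and 222 CPM at 0 h, with the libraries overlapping (0.03 ± 0.06, adjusted p = 0.830). At 8 h SU-DHL-10 minus OCI-LY19 was 0.03 with a 95% interval from -0.10 to 0.15 (adjusted p = 0.716), against 0.90 ± 0.06 at 0 h (adjusted p = 2.68e-16). Without TMM the 8 h value was 0.16 and was called (adjusted p = 0.0180).

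In U-2932 HK2 had 180 and 190 CPM at 8 h and 179 and 197 CPM at 0 h, a difference of -0.02 ± 0.06 (adjusted p = 0.807). With spike-in scaling that value was 0.70 (adjusted p = 1.16e-05), the same as the shift of the median gene in that line. The across-line rise of 0.38 ± 0.11 (adjusted p = 0.0236) rested on the 2 lines that rose: it was 0.22 without the OCI-LY19 line and 0.30 without the OCI-LY3 line, and neither was called. Leaving out single libraries also ended the call for 5 of 16, namely either 0 h library of OCI-LY19, either 0 h library of OCI-LY3 and the first 8 h library of OCI-LY3, with values from 0.33 to 0.36. HK2-DT, a divergent transcript beside HK2, reached 14.6 CPM, and no source used here says whether the counting used strand, without which reads of the 2 could not be told apart where they overlap.

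PFKFB3, whose product activates phosphofructokinase, had 47.7 and 47.3 CPM at 8 h against 70.3 and 71.4 CPM at 0 h in U-2932, a fall with TMM scaling (-0.58 ± 0.08, adjusted p = 5.59e-08) but 0.15 with spike-in scaling (adjusted p = 0.446). Both 8 h libraries were below both 0 h libraries. In SU-DHL-10 it had 58.5 and 57.3 CPM at 8 h and 70.7 and 65.0 CPM at 0 h (-0.23 ± 0.08, adjusted p = 0.0432), and 14 of 24 alternatives lost this call. The OCI-LY3 value of -0.11 ± 0.08 and the OCI-LY19 value of 0.18 ± 0.08 were not called (adjusted p = 0.382 and 0.0679). The libraries of OCI-LY3 ran from 46.7 to 49.5 CPM at 8 h and from 49.6 to 54.1 CPM at 0 h, and those of OCI-LY19 from 49.6 to 50.9 CPM at 8 h and from 42.8 to 45.7 CPM at 0 h. At 8 h no pair among OCI-LY3, OCI-LY19 and U-2932 was called different (adjusted p from 0.384 to 0.866), whereas at 0 h all 3 pairs were. Without TMM OCI-LY3 was called below U-2932 at 8 h (-0.18), and OCI-LY3 and OCI-LY19 were not called different at 0 h (adjusted p = 0.875).

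**Figure D2:**
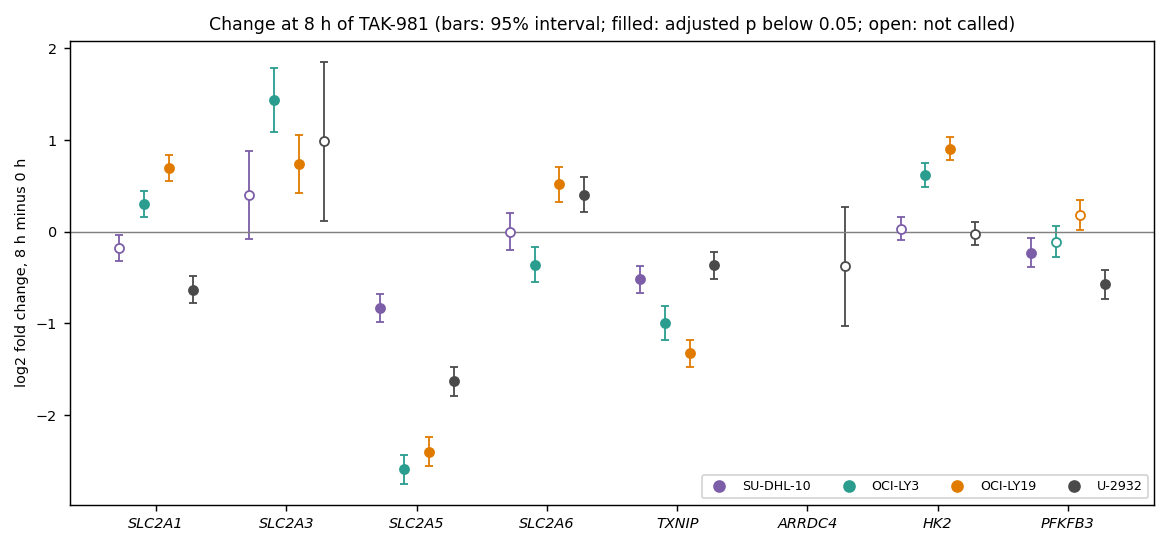
Log2 fold change of 8 h minus 0 h for each gene in each line, with bars for the 95% interval; filled points have an adjusted p under 0.05 and open points do not. With TMM scaling, as drawn, SLC2A5 and TXNIP lie below 0 in all 4 lines (TXNIP in U-2932 lies above 0 with spike-in scaling), SLC2A1 and HK2 lie above 0 with filled points in OCI-LY3 and OCI-LY19, and ARRDC4 has a value in U-2932 alone.

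Counted by line, OCI-LY3 and OCI-LY19 had the most calls among the 7 genes with a value in them. OCI-LY3 had 6 of 7 called, against 25.6% of all tested genes, with SLC2A1, SLC2A3 and HK2 higher and SLC2A5, SLC2A6 and TXNIP lower, where 13.1% of all genes were higher and 12.5% lower. OCI-LY19 also had 6 of 7 called, against 39.3% of all genes, with SLC2A1, SLC2A3, SLC2A6 and HK2 higher and SLC2A5 and TXNIP lower, where 21.6% were higher and 17.6% lower. SU-DHL-10 had SLC2A5, TXNIP and PFKFB3 lower and none of its 7 genes higher, against 12.7% of all genes called, 6.31% higher and 6.34% lower. U-2932 had SLC2A6 higher and SLC2A1, SLC2A5, TXNIP and PFKFB3 lower, and all of these lower genes but SLC2A5 turn positive with spike-in scaling. That is 5 of 8 genes, against 50.9% of all genes called, 26% higher and 24.9% lower, and so near the background of that line.

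SLC2A5 and TXNIP were among the 90 genes, or 0.519% of those tested, that were called lower in each of the 4 lines. None of the 8 genes was among the 184, or 1.06%, called higher in each line. With spike-in scaling TXNIP leaves this group, through SU-DHL-10 and U-2932, and SLC2A5 stays in it. The 4 comparisons use separate 0 h libraries.

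**Figure D3:**
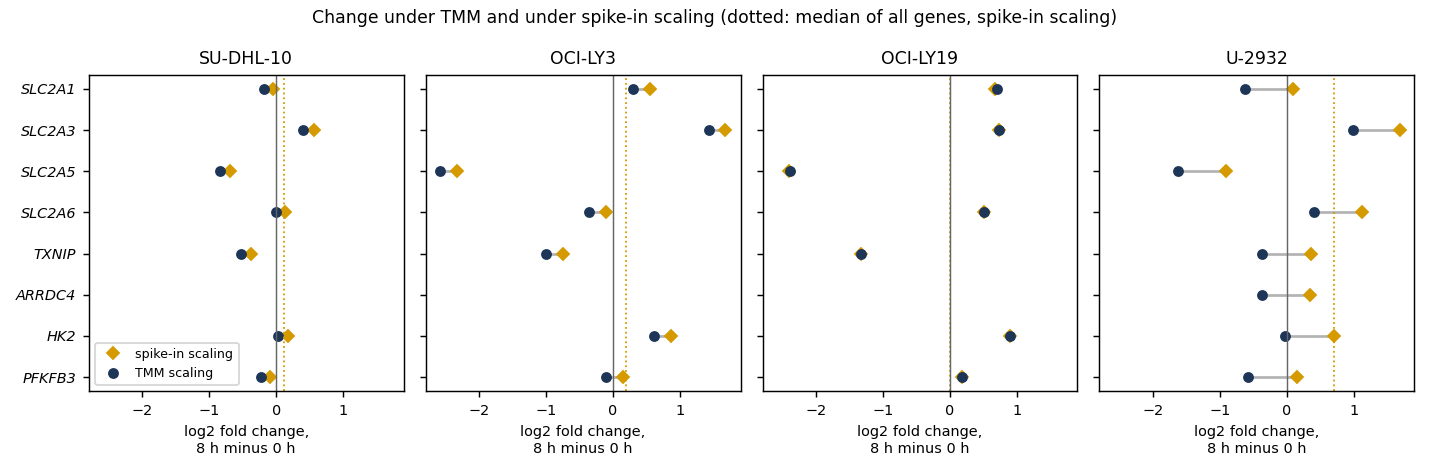
Log2 fold change of 8 h minus 0 h of each gene under spike-in scaling (diamonds) and TMM scaling (circles), by line, with the median of all tested genes under spike-in scaling as a dotted line; ARRDC4 has a value in U-2932 alone. In U-2932 the 2 scalings are 0.70 apart for the median gene, and SLC2A1, TXNIP, ARRDC4, HK2 and PFKFB3 change sign between them, while SLC2A5 stays below 0 in all 4 lines.

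A change seen in 1 line and not in another was tested directly. The response differed between the 4 lines for all 7 genes with a value in each line, against 53.5% of all tested genes. It was 6 of 7 with spike-in scaling, where PFKFB3 was not called (adjusted p = 0.715), and 6 of 7 without the second 0 h library of OCI-LY3, where SLC2A3 was not (0.118). By pairs of lines, 6 of 7 genes differed in response between SU-DHL-10 and OCI-LY19 (all but SLC2A3, against 29.8% of all genes) and 6 of 7 between OCI-LY3 and U-2932 (all but SLC2A3, 38.1%). OCI-LY19 and U-2932 differed in 5 of 7 (all but SLC2A3 and SLC2A6, 46.2%), as did SU-DHL-10 and OCI-LY3 (all but SLC2A6 and PFKFB3, 14.3%). The most similar lines, OCI-LY3 and OCI-LY19, also differed in 5 of 7 (all but SLC2A5 and PFKFB3, 15.4%). SU-DHL-10 and U-2932 differed in 4 of 7 (all but SLC2A3, TXNIP and HK2, 32.8%).

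The largest of these differences in response, leaving SLC2A5 aside, was that of SLC2A1 between OCI-LY19 and U-2932, at 1.33 ± 0.10 on the log2 scale (adjusted p = 1.03e-14). HK2 differed between the same lines by 0.93 ± 0.09 (adjusted p = 8.81e-12) and TXNIP by -0.96 ± 0.10 (adjusted p = 1.77e-10). For TXNIP the difference between SU-DHL-10 and U-2932 was -0.15 with a 95% interval from -0.36 to 0.06 (adjusted p = 0.297). For HK2 the difference between the same 2 lines was 0.06 with an interval from -0.12 to 0.23 (adjusted p = 0.710).

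Levels were also compared between lines with TMM scaling, over the 7 genes with a value in each. At 0 h all 7 were called different between SU-DHL-10 and OCI-LY3, against 57.1% of all tested genes, and all 7 between OCI-LY3 and U-2932 (69.2%). Between SU-DHL-10 and OCI-LY19 it was 6 of 7 (all but SLC2A1, 63.8%). It was 5 of 7 between SU-DHL-10 and U-2932 (all but SLC2A1 and PFKFB3, 68.6%), between OCI-LY3 and OCI-LY19 (all but SLC2A5 and HK2, 39.5%) and between OCI-LY19 and U-2932 (all but SLC2A1 and SLC2A6, 70.5%), and the share of the members was near that of all genes in the pairs of U-2932 with SU-DHL-10 and with OCI-LY19.

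At 8 h SU-DHL-10 differed from OCI-LY3 in all 7 genes (59.7% of all genes), from U-2932 in all 7 (63.9%) and from OCI-LY19 in 6 of 7 (all but HK2, 66%). OCI-LY3 and U-2932 differed in 4 of 7 (SLC2A1, SLC2A3, SLC2A6 and TXNIP, against 66.2% of all genes). OCI-LY19 and U-2932 differed in 3 of 7 (SLC2A1, SLC2A3 and HK2, against 67.5%), and OCI-LY3 and OCI-LY19 in 3 of 7 (SLC2A6, TXNIP and HK2, against 35.3%). SLC2A5 and PFKFB3 were called different in none of these last 3 pairs at 8 h with TMM scaling, but SLC2A5 was in 2 and PFKFB3 in 1 of them without TMM, and both in all 3 with spike-in scaling. Over the 6 pairs and 7 genes, 30 of 42 comparisons were called at 8 h and 35 at 0 h with TMM scaling. It was 35 at 8 h and 35 at 0 h without TMM, and 38 at 8 h and 38 at 0 h with spike-in scaling. The share of all tested genes called in a pair was 35.3% to 70.5% with TMM scaling and 34.9% to 70.5% without TMM. With spike-in scaling it was 60.7% to 88%, so that calls became more frequent among all genes too.

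Genes of the same pathways were read from lists, whose counts are descriptions with TMM scaling unless another is named. With TMM scaling 26% of all tested genes rose and 24.9% fell in U-2932, and 21.6% and 17.6% in OCI-LY19. In OCI-LY3 it was 13.1% and 12.5%, and in SU-DHL-10 6.31% and 6.34%. Spike-in scaling gave 9751 genes called in U-2932 (8821 with TMM), and the median of all tested genes there was 0.70. List counts under spike-in scaling in U-2932 include that shift. The shares of all genes that rose or fell under it are not given. Of the other hexose carriers, 9 of 15 were tested. SLC2A11, a further member of the GLUT family, fell in OCI-LY3 and OCI-LY19, with mean levels of 5.97 and 5.78 CPM at 8 h against 11.2 and 17.2 CPM at 0 h (-0.90 ± 0.16 and -1.57 ± 0.15). It had no call in SU-DHL-10 (0.18 ± 0.13) or U-2932 (-0.24 ± 0.15, which turned to 0.49 under spike-in scaling). SLC5A3, a sodium-driven inositol carrier, rose in SU-DHL-10 (0.87 ± 0.11) and U-2932 (1.29 ± 0.10) and fell in OCI-LY19 (-0.55 ± 0.10), and SLC2A13, the proton-driven inositol carrier, rose in SU-DHL-10 (1.19 ± 0.29), OCI-LY19 (0.71 ± 0.27) and U-2932 (0.59 ± 0.19). SLC50A1, a sugar carrier of the SWEET family, rose in OCI-LY19 (0.44 ± 0.09) and fell in U-2932 (-1.04 ± 0.10). Over this list 2 rose and 1 fell in U-2932, 2 and 2 in OCI-LY19, 0 and 1 in OCI-LY3, and 2 and 0 in SU-DHL-10. With spike-in scaling 5 rose and 0 fell in U-2932, where the list median was 0.58. Without TMM 0 rose and 2 fell in OCI-LY19.

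Among other hexose kinases and the PFKFB family, 7 of 12 genes were tested. PFKFB4, the paralogue of PFKFB3, had mean levels of 3.99 CPM at 8 h and 19.1 CPM at 0 h in U-2932 (-2.26 ± 0.17, adjusted p = 2.15e-14), and it also fell in OCI-LY3 (-0.69 ± 0.16) and OCI-LY19 (-1.16 ± 0.18). It rose in SU-DHL-10, where it had 4.13 CPM at 8 h and 1.77 CPM at 0 h (1.22 ± 0.23, adjusted p = 1.53e-04). HK1, the housekeeping hexokinase, fell in U-2932 (-0.41 ± 0.08, but 0.32 under spike-in scaling). GALK1, the galactokinase gene, fell in U-2932 (-1.25 ± 0.16) and had 0 counts in OCI-LY3 and OCI-LY19. PFKFB2 had no call in any line, with values between -0.33 and 0.69.

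In fructose and polyol metabolism, GFPT1, the gateway enzyme of the hexosamine pathway, was called higher in all 4 lines with TMM scaling. The values were 0.48 ± 0.08 in U-2932, 0.26 ± 0.08 in OCI-LY19, 0.27 ± 0.08 in OCI-LY3 and 0.51 ± 0.08 in SU-DHL-10. GFPT1 was the only gene of the 11 tested to be called higher in all 4 lines with that scaling. In OCI-LY19 3 genes of this list rose and 1 fell with TMM scaling. There 0 rose and 1 fell with spike-in scaling, and 0 rose and 4 fell without TMM, so that GFPT1 lost its call in OCI-LY19. TKFC, the triokinase of the fructose route, fell in OCI-LY3 (-0.37 ± 0.11) and U-2932 (-0.65 ± 0.11). GMPPA, a regulator of mannose nucleotide synthesis, fell in U-2932 (-0.69 ± 0.10), and GFUS, which makes the fucose nucleotide, rose in OCI-LY19 (0.30 ± 0.09) and fell in U-2932 (-0.56 ± 0.08). The U-2932 values of TKFC, GMPPA and GFUS turned to 0.08, 0.04 and 0.17 under spike-in scaling. The OCI-LY19 rise of GFUS was not called with spike-in scaling or without TMM.

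MLXIP, which encodes the glucose-sensing factor MondoA, rose in U-2932 (0.77 ± 0.08, adjusted p = 1.51e-10) and had no call in OCI-LY19 (0.02), OCI-LY3 (0.16) or SU-DHL-10 (0.09). MGA, a MAX partner in the same network of factors, rose in U-2932 (1.66 ± 0.08) and OCI-LY3 (0.35 ± 0.07). MNT, a repressor, fell in OCI-LY3 (-0.48 ± 0.10) and OCI-LY19 (-1.04 ± 0.10), and MXD1, a further repressor, rose in OCI-LY3 (1.15 ± 0.19), U-2932 (0.39 ± 0.14) and OCI-LY19 (0.77 ± 0.14). Of the 9 tested genes of this network, 4 were called in U-2932 (3 higher), 4 in OCI-LY19 (2 higher), 4 in OCI-LY3 (2 higher) and 0 in SU-DHL-10, against 50.9%, 39.3%, 25.6% and 12.7% of all genes in the same order of lines. With spike-in scaling 8 rose and 0 fell in U-2932, where the median was 0.89 for the list and 0.70 for all tested genes. With that scaling it was 1 and 2 in OCI-LY19 and 3 and 0 in OCI-LY3. Without TMM 1 rose and 5 fell in OCI-LY19.

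ARRDC3, an alpha-arrestin and a MondoA target outside the 8 genes, had mean levels of 9.34 CPM at 8 h and 20.9 CPM at 0 h in OCI-LY3 (-1.16 ± 0.14, adjusted p = 1.23e-08). In OCI-LY19 it had 9.21 CPM at 8 h and 27.7 CPM at 0 h (-1.59 ± 0.13, adjusted p = 4.34e-13). In U-2932 it rose, with 38.9 CPM at 8 h and 18.5 CPM at 0 h (1.07 ± 0.12, adjusted p = 1.01e-09), and in SU-DHL-10 the value of 0.29 ± 0.12 was not called (adjusted p = 0.114). Of the other alpha-arrestins, ARRDC2 rose in OCI-LY3 (0.49 ± 0.11) and OCI-LY19 (0.29 ± 0.10). The OCI-LY19 rise of ARRDC2 was not called with spike-in scaling or without TMM. ARRDC2 fell in U-2932 (-0.55 ± 0.11, but 0.18 with spike-in scaling), and ARRDC1 fell in U-2932 (-0.42 ± 0.12, but 0.31 with spike-in scaling). Among further MondoA targets, PIK3IP1, an inhibitor of PI3-kinase, fell in OCI-LY3 (-1.12 ± 0.15) and OCI-LY19 (-1.20 ± 0.14). SESN2, a stress-induced inhibitor of mTORC1, rose in OCI-LY3 (1.03 ± 0.09) and OCI-LY19 (0.67 ± 0.09) and fell in U-2932 (-0.29 ± 0.11, but 0.43 with spike-in scaling). FASN, the fatty acid synthase gene, fell in OCI-LY3 (-0.43 ± 0.06) and rose in SU-DHL-10 (0.24 ± 0.06), OCI-LY19 (0.64 ± 0.06) and U-2932 (0.28 ± 0.06). Over the 9 tested MondoA targets outside the 8 genes, 2 rose and 3 fell in U-2932, 4 and 3 in OCI-LY19, 2 and 5 in OCI-LY3, and 1 and 0 in SU-DHL-10. With spike-in scaling 7 rose and 0 fell in U-2932, where the median was 0.84 for the list and 0.70 for all tested genes. With that scaling it was 2 and 3 in OCI-LY19, 3 and 3 in OCI-LY3, and 0 and 0 in SU-DHL-10. Without TMM 2 rose and 4 fell in OCI-LY19.

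Among 11 tested genes of the thioredoxin system and the ligases that act on TXNIP, ITCH, a ubiquitin ligase for TXNIP, rose in U-2932 (0.99 ± 0.07). NEDD4L, a related ligase, fell in U-2932 (-1.05 ± 0.07) and rose in OCI-LY19 (0.50 ± 0.08). TXNRD1, the cytosolic thioredoxin reductase, rose in U-2932 (0.72 ± 0.07) and fell in SU-DHL-10 (-0.27 ± 0.07) and OCI-LY3 (-0.19 ± 0.07), the OCI-LY3 value turning to 0.06 under spike-in scaling. TXN2, the mitochondrial thioredoxin, fell in U-2932 (-0.79 ± 0.07), SU-DHL-10 (-0.26 ± 0.07) and OCI-LY3 (-0.22 ± 0.07, but 0.03 with spike-in scaling). Over the list 5 rose and 4 fell in U-2932, 4 and 0 in OCI-LY19, 2 and 3 in OCI-LY3, and 1 and 3 in SU-DHL-10. With spike-in scaling 8 rose and 0 fell in U-2932, where the median was 0.70 for the list and for all tested genes. With that scaling it was 3 and 0 in OCI-LY19, 3 and 0 in OCI-LY3, and 0 and 0 in SU-DHL-10. Without TMM 2 rose and 4 fell in OCI-LY19.

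Of 18 genes of glycolysis below hexokinase and lactate export, 11 rose and 2 fell in OCI-LY19 with TMM scaling, with a median log2 fold change of 0.33 against 0.00 over all tested genes, while 6 rose and 1 fell with spike-in scaling and 6 rose and 5 fell without TMM. In U-2932, 2 rose and 15 fell, with a median of -0.70, but with spike-in scaling 3 rose and 2 fell and the median was 0.03, against 0.70 over all tested genes. The difference between the lines over this list was not tested. PKM, pyruvate kinase, rose in OCI-LY19 (0.49 ± 0.06) and fell in U-2932 (-0.76 ± 0.06), as did PGAM1, phosphoglycerate mutase (0.41 ± 0.06 in OCI-LY19, against -0.86 ± 0.06 in U-2932). TPI1, triosephosphate isomerase, was called lower in U-2932 and rose in OCI-LY19 (0.19 ± 0.06, but -0.05 without TMM). ALDOC, an aldolase, fell in U-2932 (-2.64 ± 0.11), OCI-LY19 (-1.44 ± 0.09) and OCI-LY3 (-0.71 ± 0.09), and was 0.31 ± 0.12 with no call in SU-DHL-10 (adjusted p = 0.0838). In SU-DHL-10, 0 of the 18 rose and 1 fell, and in OCI-LY3, 2 rose and 2 fell. ALDOA and LDHB of this list averaged 2.51 and 3.64 CPM, and how the counting treated reads shared with copies of these genes was not stated.

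Of 14 genes that move GLUT1 and GLUT4 to and from the surface, STX4, a surface fusion protein, rose in OCI-LY3 (1.26 ± 0.10) and OCI-LY19 (1.32 ± 0.10). VPS26A, a retromer subunit that returns GLUT1 to the surface, rose in OCI-LY3 (0.81 ± 0.07), U-2932 (0.51 ± 0.08) and OCI-LY19 (0.84 ± 0.07). TBC1D4, a brake on GLUT4 release, fell in OCI-LY3 (-0.58 ± 0.10) and OCI-LY19 (-0.59 ± 0.10) and rose in U-2932 (1.10 ± 0.10). TBC1D5, a retromer regulator, fell in OCI-LY3 (-0.54 ± 0.07) and OCI-LY19 (-0.19 ± 0.07) and rose in U-2932 (0.75 ± 0.07). Over the list 7 rose and 2 fell in U-2932, 3 and 2 in OCI-LY19, 3 and 2 in OCI-LY3, and 0 and 2 in SU-DHL-10. With spike-in scaling 12 rose and 0 fell in U-2932, where the median was 0.87 for the list and 0.70 for all tested genes. With that scaling it was 2 and 1 in OCI-LY19, 4 and 0 in OCI-LY3, and 0 and 0 in SU-DHL-10. Without TMM 2 rose and 5 fell in OCI-LY19.

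Among 19 tested genes of the hypoxia factor and its targets, EGLN1, an oxygen sensor, rose in SU-DHL-10 (0.35 ± 0.09), OCI-LY3 (0.60 ± 0.09) and OCI-LY19 (0.69 ± 0.08). P4HA1, a collagen prolyl hydroxylase, rose in the same 3 lines (0.33 ± 0.10, 0.47 ± 0.09 and 0.52 ± 0.09) and fell in U-2932 (-0.76 ± 0.09, but -0.03 with spike-in scaling). BNIP3, a mitophagy receptor, rose in SU-DHL-10 (0.61 ± 0.11) and fell in U-2932 (-1.15 ± 0.11), and ARNT, the partner of the hypoxia factor, rose in U-2932 (0.93 ± 0.09) and fell in OCI-LY19 (-0.25 ± 0.09). Over the list 1 rose and 8 fell in U-2932, where with spike-in scaling 7 rose and 1 fell. The list median there was 0.52 with spike-in scaling, against 0.70 over all tested genes. In OCI-LY19 4 rose and 5 fell, in OCI-LY3 5 rose and 1 fell, and in SU-DHL-10 6 rose and 0 fell. With spike-in scaling it was 4 and 1 in OCI-LY19, 6 and 0 in OCI-LY3, and 3 and 0 in SU-DHL-10.

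Of 18 genes of PI3-kinase, AKT, mTORC1 and the energy sensors, PRKAB1, a subunit of the AMP-activated kinase, was called lower in all 4 lines (-0.35 ± 0.09 in U-2932, -0.64 ± 0.09 in OCI-LY19, -0.40 ± 0.09 in OCI-LY3 and -0.35 ± 0.08 in SU-DHL-10), though it turned to 0.38 in U-2932 under spike-in scaling. PIK3CA, the catalytic subunit of PI3-kinase, rose in OCI-LY3 (1.02 ± 0.10), U-2932 (1.20 ± 0.09) and OCI-LY19 (0.59 ± 0.09). PIK3CD, the leukocyte form, rose in OCI-LY19 (0.69 ± 0.06), OCI-LY3 (0.38 ± 0.06) and SU-DHL-10 (0.26 ± 0.06) and fell in U-2932 (-0.27 ± 0.06, but 0.45 with spike-in scaling). MTOR rose in U-2932 (0.96 ± 0.07) and OCI-LY19 (0.21 ± 0.07, but -0.02 without TMM). Over the list 7 rose and 5 fell in U-2932, 7 and 5 in OCI-LY19, 6 and 3 in OCI-LY3, and 3 and 3 in SU-DHL-10. With spike-in scaling 17 rose and 0 fell in U-2932, where the median was 0.70 for the list and for all tested genes. With that scaling it was 4 and 3 in OCI-LY19, 7 and 0 in OCI-LY3, and 1 and 0 in SU-DHL-10. Without TMM 4 rose and 7 fell in OCI-LY19.

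**Figure D4:**
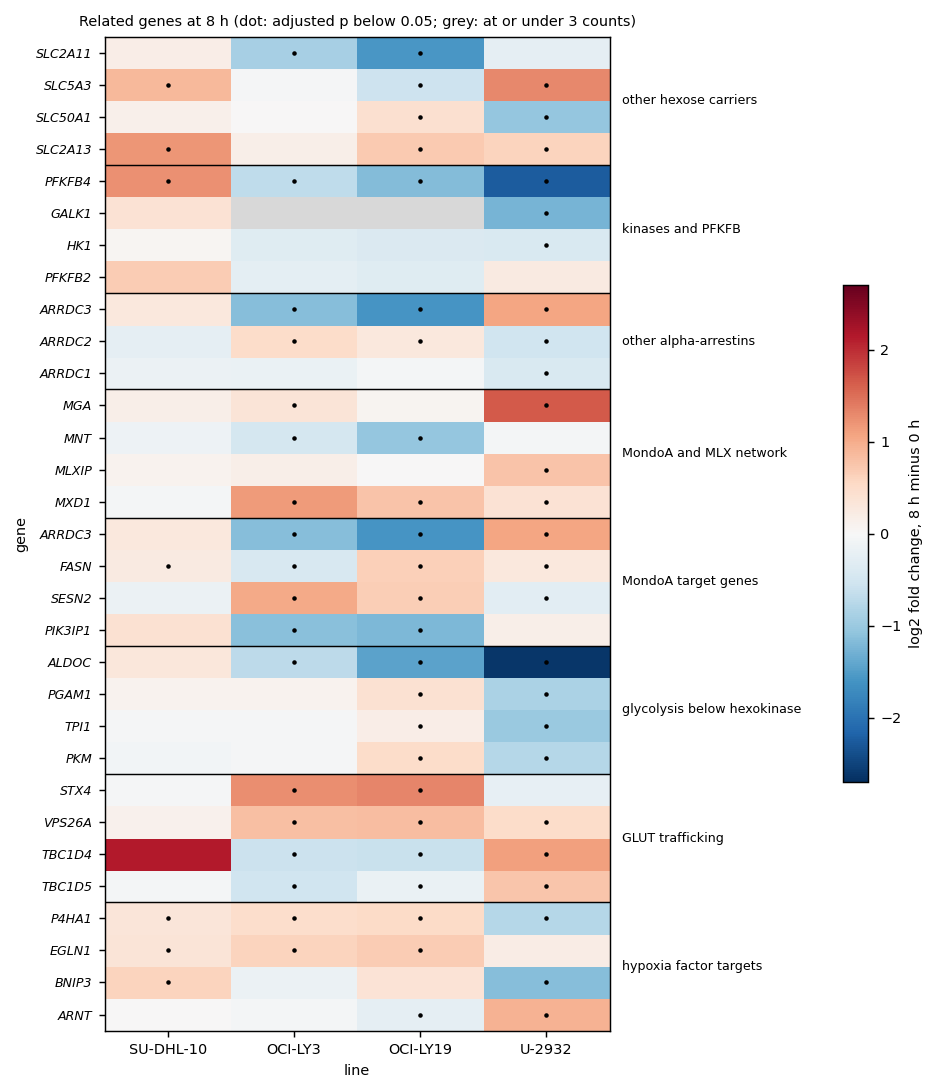
Log2 fold change of 8 h minus 0 h (colour, red higher and blue lower) of genes related to sugar uptake in each line, up to 4 from each list; a dot marks an adjusted p under 0.05 and grey marks groups at or under 3 counts. PFKFB4 is red in SU-DHL-10 and blue in the other 3 lines, and ARRDC3 is blue in OCI-LY3 and OCI-LY19 and red in U-2932.

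Over the 16 libraries the genes whose log2 CPM ran most closely with TXNIP, of 9847 candidate genes (mean level 5 CPM or more), were PLXNB2 (Pearson r = 0.944), DPF2 (0.939) and NECAB3 (0.924). For SLC2A5 they were MCM5 (0.916), KCNN3 (0.885) and FRMD8 (0.872). The nearest gene to SLC2A1 was TMBIM6 (0.990), to SLC2A3 SUN1 (0.984), to HK2 NETO2 (0.951), to PFKFB3 ADPRS (0.952) and to SLC2A6 IPO5 (0.885). CPXM1 was nearest to ARRDC4 (0.997), which is at or near 0 in 3 of 4 lines. These values describe 16 libraries that share 4 lines and 2 times, and they are not independent points.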

How the data were processed

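Poly(A)-enriched RNA of 16 libraries was sequenced, per the labels' protocols, and the authors deposited 1 table of raw gene counts that also holds 92 spike-in RNAs. The submitters' processing notes name GRCh38 and hg19 as builds and HOMER, bedtools, MACS2, Bowtie2, DESeq2 and Trimmomatic as tools, with no role for each. The aligner, counter, annotation and strand setting behind the counts are not given in the sources used here. Of the series, 8 ATAC-seq samples were not analysed here, and 2 marker genes are not reported here.

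Symbols were matched for 58207 of 58676 gene IDs. Spike-ins stayed out of library sizes. The filter on low counts was filterByExpr with the 8 groups, TMM gave the scaling, and a robust quasi-likelihood model was fitted (edgeR 4.0.16, limma 3.58.1, R 4.3.3). Group means (8 residual degrees of freedom) gave the changes within a line, the differences between lines and the levels, and line plus time (11 residual degrees of freedom) gave the change across lines. The threshold was an adjusted p of 0.05 over 17327 genes. The SE was obtained from the log2 fold change and its F statistic, and intervals are at 95%. Groups at or under 3 counts got no fold change. The median biological coefficient of variation was 8.71%. The fits were tested on simulated data.

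The 8 genes, the lists and the alternatives were chosen with earlier results of these data known, so list counts are descriptions. From each list up to 4 tested genes at a mean level of 5 CPM or more and the smallest p of the joint test over lines are named, and any gene called in 1 direction in all 4 lines. Alternatives were spike-in scaling, no TMM, RLE scaling, DESeq2 1.42.0, a stricter filter or none, a replicate block, 1 line alone, pairs of lines with like spike-in share, the mean of the line contrasts, SLC2A3 with SLC2A14 added, and leaving out each library or line. Leaving out a line in the difference test was chosen after seeing the data.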

Additional observations from a re-analysis of the deposited data

Results flagged for a closer look

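The change after 8 h of TAK-981 differed between the 4 lines for 7 of the 8 genes, by edgeR's quasi-likelihood test on 3 degrees of freedom with Benjamini-Hochberg adjustment. The adjusted p was 1.40e-17 for SLC2A5, which fell in all 4 lines by different amounts. It was 3.16e-14 for SLC2A1, which rose in OCI-LY19 and OCI-LY3 and fell in U-2932 (with spike-in scaling 0.09 there), and 1.23e-12 for HK2, which rose in OCI-LY19 and OCI-LY3. For TXNIP it was 2.32e-10, with the fall steepest in OCI-LY19. SLC2A6, which rose in OCI-LY19 and U-2932 and fell in OCI-LY3, had 8.80e-07. PFKFB3, which fell in U-2932 and SU-DHL-10 with TMM scaling, had 3.68e-06, and with spike-in scaling 0.715. SLC2A3 had 0.0105, and this call was lost without the second 0 h library of OCI-LY3 (0.118) and without the OCI-LY3 line (0.482).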

How the results depend on the processing

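SLC2A5 kept its direction and its call in each line and across lines under every alternative tried, as did SLC2A1, SLC2A3, TXNIP and HK2 in OCI-LY3 and OCI-LY19, SLC2A6 in OCI-LY19 and U-2932, and SLC2A3 and TXNIP across lines. Over all results on the 8 genes, 1060 values under an alternative kept their direction and side of the threshold, 29 lost the call, 16 gained it and 23 reversed. The depth limits ARRDC4 outside U-2932 and SLC2A3 in U-2932. Causes were not tested.

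Spike-in scaling reversed ARRDC4 across lines (0.32) and in U-2932 (0.35), HK2 in U-2932 (0.70), PFKFB3 across lines (0.10), in OCI-LY3 (0.15) and in U-2932 (0.15), SLC2A1 in U-2932 (0.094) and TXNIP in U-2932 (0.36). It left 1 of the 3 calls among the 8 genes in SU-DHL-10, 773 genes called there (2192 with TMM) and 4206 in OCI-LY19 (6803 with TMM). Without TMM, HK2 in U-2932 was 0.086 and PFKFB3 in OCI-LY19 -0.055. SLC2A6 in SU-DHL-10 was -0.0052 with DESeq2, -0.0060 with no filter and -0.0051 with RLE scaling. SLC2A1 across lines was -0.16 without the OCI-LY19 line and -0.041 without the OCI-LY3 line, and SLC2A6 across SU-DHL-10 and OCI-LY3 was -0.18.

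Across lines 3128 genes were called. The mean of the 4 line contrasts gave 7112, OCI-LY19 and U-2932 alone 1758, SU-DHL-10 and OCI-LY3 alone 1911, and the lines without OCI-LY3 1409. Genes whose change differed between lines numbered 9268, and 5619 without U-2932. Replicate numbers are shared by the groups, and the labels do not say whether they mark a shared culture or day. Over all tested genes, deviations of libraries with the same number had correlations from -0.012 to 0.034 between 8 h and 0 h. With 2 libraries a group this cannot exclude that the numbers pair the samples. With the replicate as a block 1215 genes were called across lines, and 3 of the 8 genes, HK2 being lost at 0.38, and PFKFB3 in SU-DHL-10 was lost at -0.23.

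Leaving out 1 library at a time gave 1060 to 2419 genes called in SU-DHL-10, with 2 to 4 of the 8 genes. HK2 ranged from -0.0045 to 0.077 in SU-DHL-10 and from -0.086 to 0.054 in U-2932, SLC2A1 across lines from -0.036 to 0.12, and SLC2A6 in SU-DHL-10 from -0.16 to 0.19.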
